A study of Homo sapiens with 12 samples.

Results

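The transcripts of MYC and of the nucleolar machinery that makes ribosomes were followed in human non-small cell lung carcinoma (NSCLC) cells exposed to isovalerylspiramycin I (ISP-I), a macrolide compound. The set held 45 genes chosen by name out of 19973 genes in the expression table, and each name was found once. By role they comprised 5 genes of the MYC and MAX network, 6 of RNA polymerase I, 8 of small nucleolar ribonucleoprotein particles (snoRNPs), 13 of small-subunit rRNA processing, 10 of large-subunit rRNA processing and 3 abundant nucleolar proteins (NCL, NPM1 and DDX21).

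Ribosome production starts in the nucleolus, where RNA polymerase I copies the ribosomal DNA into a long precursor RNA. SnoRNPs modify that precursor and processing factors cut, fold and assemble it into the small and the large ribosomal subunit. MYC, a transcription factor that pairs with MAX on the E-box motif CACGTG, is known as an activator of many of these genes, while MXD1, MXI1 and MNT pair with MAX as repressors. Tumour cells that divide quickly usually have large nucleoli, and the nucleolar proteins NCL and NPM1 bind the silver stains that pathologists use to show them.

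H460, an established line from a large cell lung carcinoma, and A549, an established line from a lung adenocarcinoma, were compared without treatment (control) and after 10 µM ISP-I for 48 h. By the viability assay of the paper, this dose lay above the median inhibitory concentration of H460 and below that of A549. The paper also reports more apoptosis in H460 at this dose. A difference between the lines in their change thus cannot be told apart from a difference in effective dose or cell death. Both lines were labelled wild type, although the paper gives both as homozygous for inactive KEAP1. The control cells were labelled non-treated, without mention of a vehicle. Each of the 4 groups held 3 libraries, so the study had 12 libraries, and nothing in the labels said whether the 3 came from separate cultures. The p-values therefore measured the spread between these libraries, which may be technical. RNA levels were given as FPKM, which are read counts scaled to gene length and sequencing depth, so levels could be compared between genes. Comparison between libraries rests on the scaling to depth. Median-of-ratios factors of the FPKM were 0.842, 0.855 and 0.849 in the H460 ISP-I libraries and 1.04, 1.01 and 1.04 in the H460 control libraries. Counts are therefore also given with median-of-ratios scaling. Each library is numbered here by its order within its group in the table.

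Between 14225849 and 17874422 reads on genes stood behind each library. The keratins KRT8, KRT18 and KRT19 were expressed in every library of both carcinoma lines, with KRT8 between 168 and 748 FPKM. EPCAM and CDH1, which also mark epithelium, reached at most 2.08 and 5.18 FPKM in A549, and at most 0.148 and 0.0458 FPKM in H460. The blood marker PTPRC, the endothelial marker PECAM1 and the fibroblast marker DCN were at or under 0.0368 FPKM, and the fibroblast marker COL1A1 was between 0.621 and 1.304 FPKM. In H460, the median gene moved by -0.15 on the log2 scale after ISP-I, and scaling the libraries by median-of-ratios moved that median to 0.014, and changes in H460 are printed as measured, not relative to that median. In A549 the median gene moved by 0.02. In bulk RNA of this kind, fewer cells of a type and less RNA per cell cannot be told apart.

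Among the 12 libraries, 3 differed from the others of their group by more than 0.5 in log2(FPKM + 1) in at least 4 of the 45 members, namely H460 ISP-I libraries 3 and 2 and A549 control library 3. Against libraries 1 and 2 of its group, H460 ISP-I library 3 differed by this much in 12 of the 45 members. It was higher in 8 of them (MYC, FBL, NHP2, NOP10, GAR1, RRP9, BYSL and NOP2) and lower in NOP58, UTP20, HEATR1 and DDX21. Across the 45 members this difference had a Spearman rho of -0.61 with gene length and 0.62 with transcript GC content, as a description of 1 library. H460 ISP-I library 2 was higher for TAF1D, NOP58, UTP20 and DDX21 and lower for FBL, NHP2, NOP10, RRP9 and BYSL, with a rho of 0.58 with length and -0.73 with GC content, although its comparison with the mean of libraries 1 and 3 also carries the departure of library 3. In A549 control library 3, NOP58, WDR43, WDR75 and DDX21 were lower by more than 0.5, and the rho with GC content was 0.75. Counts over the members are also given without each of these libraries and with the trends with GC content or with length removed, the 2 trend settings being chosen after seeing the data. A member's own change is given without 1 of the 3 libraries where this ended or made a call or moved a called value by over 1.5 times.

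**Figure D1:**
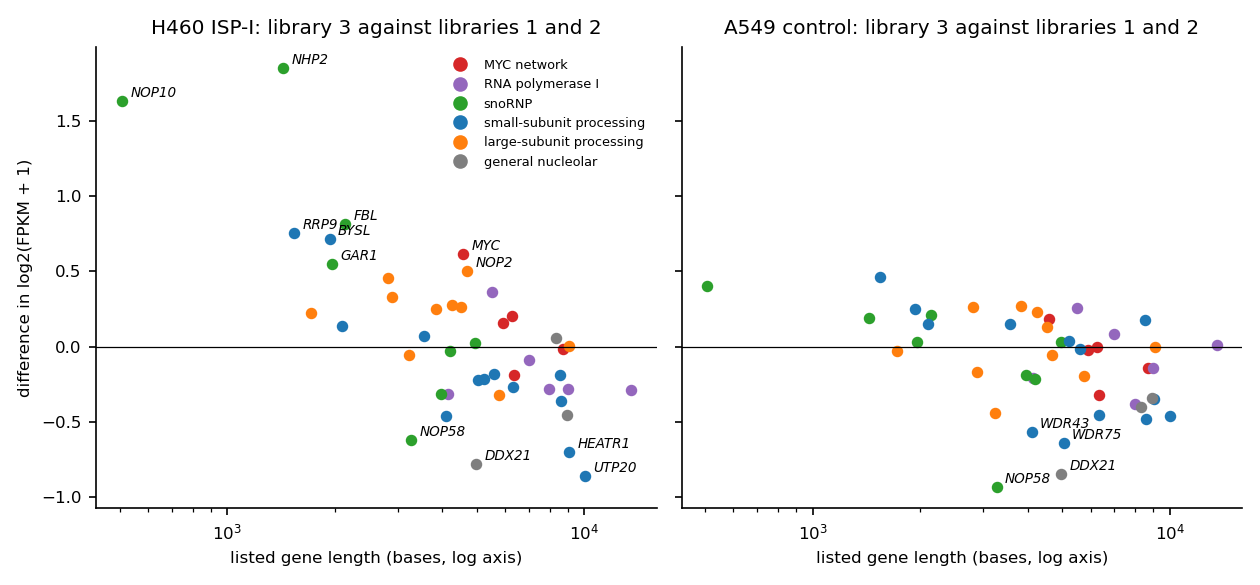
Difference in log2(FPKM + 1) between library 3 and the mean of libraries 1 and 2 of the same group (vertical axis), against the listed gene length in bases (log axis), for the 45 members coloured by role. In the H460 ISP-I group the short genes NOP10 and NHP2 lie highest and the long genes HEATR1 and UTP20 lie among the lowest.

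The E-box CACGTG, which reads the same on both strands, was found near the start site of 15 of the 38 members with a promoter in the RefSeq table (39.5%). These promoters ran from 250 bases before to 50 after each start site (300 bases, GRCh38.p14). The same letters occurred in 12.5% of the 10734 genes tested in H460 that had a promoter, and in 8.78% of all 27305 genes of that table. The share was 31.1% (42 of 135 genes) in the further lists of the same processes described with the pathway results, and 57.1% (12 of 21) in the one of these that holds MYC targets outside the nucleolus. Matches were held by 7 of 12 small-subunit genes, 3 of 6 snoRNP genes, 3 of 7 large-subunit genes and none of the 6 RNA polymerase I genes. Sequences around the matches of members that the results turn on are printed 5′ to 3′ on the strand of the gene, with the E-box in capitals. WDR43, RRP9, GNL3 and BYSL are shown because they rose in at least 1 line, and FBL because it held the motif without a call in either line. DDX21 is shown because it changed most of the abundant nucleolar proteins.
WDR43 (chr2:28894658-28894687, plus strand): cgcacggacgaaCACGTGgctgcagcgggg
RRP9 (chr3:51941892-51941921, minus strand): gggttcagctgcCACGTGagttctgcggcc
GNL3 (chr3:52686026-52686055, plus strand): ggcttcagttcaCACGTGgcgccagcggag
BYSL (chr6:41921515-41921544, plus strand): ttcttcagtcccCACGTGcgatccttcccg
FBL (chr19:39846356-39846385, minus strand): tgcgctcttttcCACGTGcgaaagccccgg
DDX21 (chr10:68956604-68956633, plus strand): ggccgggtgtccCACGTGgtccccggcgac

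The motif began 3 bases past the start site in WDR43, 6 bases past it in GNL3 and FBL, and 28 bases past it in BYSL, and it began 5 bases before the start site in RRP9 and 31 bases before it in DDX21. GNL3 and DDX21 each have 2 start sites in the table, and their motifs lie by the one farther along the gene, so that both windows fall inside the annotated gene spans. The 15 members with the motif had a median log2 fold change of 0.49 in H460 and 0.56 in A549, against 0.53 and 0.43 for the 23 members with a promoter that lacked it. Members with and without the motif thus lay within 0.2 of each other in median, and no test was made of the shares or the medians. A match is a description of the sequence and not evidence of binding.

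After ISP-I, most of the 45 members were higher in each line. In H460, 24 members rose, 4 fell and 17 were not called at a limma adjusted p under 0.05. The background was wide in this line, with 27.6% of the 13423 genes tested called higher and 41.5% called lower. In A549, 31 members rose, 1 fell and 13 were not called, while 30.5% of the 13705 genes tested were higher and 27.0% were lower. The members' median log2 fold change was 0.49 in H460, against -0.15 for all genes, and 0.47 in A549, against 0.02.

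More members passed a fold over 2 in H460 than in A549, as did more of all genes. With a fold over 2 as well, 9 members were higher and 1 was lower in H460, where the background was 10.5% and 15.2%. In A549 3 members passed in the upward direction and 0 in the downward one, where the background was 4.2% and 3.51%. The fold was taken on log2(FPKM + 1). MXD1 in A549 was therefore not counted, with a ratio of mean FPKM of 3.397 and a log2 fold change of 0.99. The count of 0 compares with 1 member, UBTF, lower in A549 at an adjusted p under 0.05 without the fold. With median-of-ratios scaling, 33 members were higher and 3 lower in H460, against 34.7% and 32.3% of all genes, and in A549 the counts stayed at 31 and 1, against 29.1% and 28.6%. The members added upward in H460 by that scaling were MNT, POLR1C, NOP56, NOP58, NOLC1, NOP14, RRP9, NOB1 and NCL (limma adjusted p from 0.0045 to 0.017), so that their lack of a call in H460 rests on the scaling.

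The counts were also taken with single libraries left out. Without H460 ISP-I library 3, 28 members rose and 7 fell, against 29.9% and 43.7% of all genes, and without H460 ISP-I library 2 they numbered 24 and 3, against 26.0% and 40.4%. Without A549 control library 3, 34 members rose and 1 fell in A549, against 34.4% and 32.3%. With the trend with GC content removed from each library the counts were 35 and 4 in H460, against 36.3% and 34.4% of all genes, and 34 and 1 in A549, against 30.0% and 31.0%. With the trend with gene length removed they were 33 and 4 in H460, against 34.5% and 33.3%, and 31 and 1 in A549, against 28.7% and 29.2%. Fewer members were thus higher in H460 than in A549 with the values as deposited, and slightly more with median-of-ratios scaling or with either trend removed, and no test was made of this difference in counts.

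**Figure D2:**
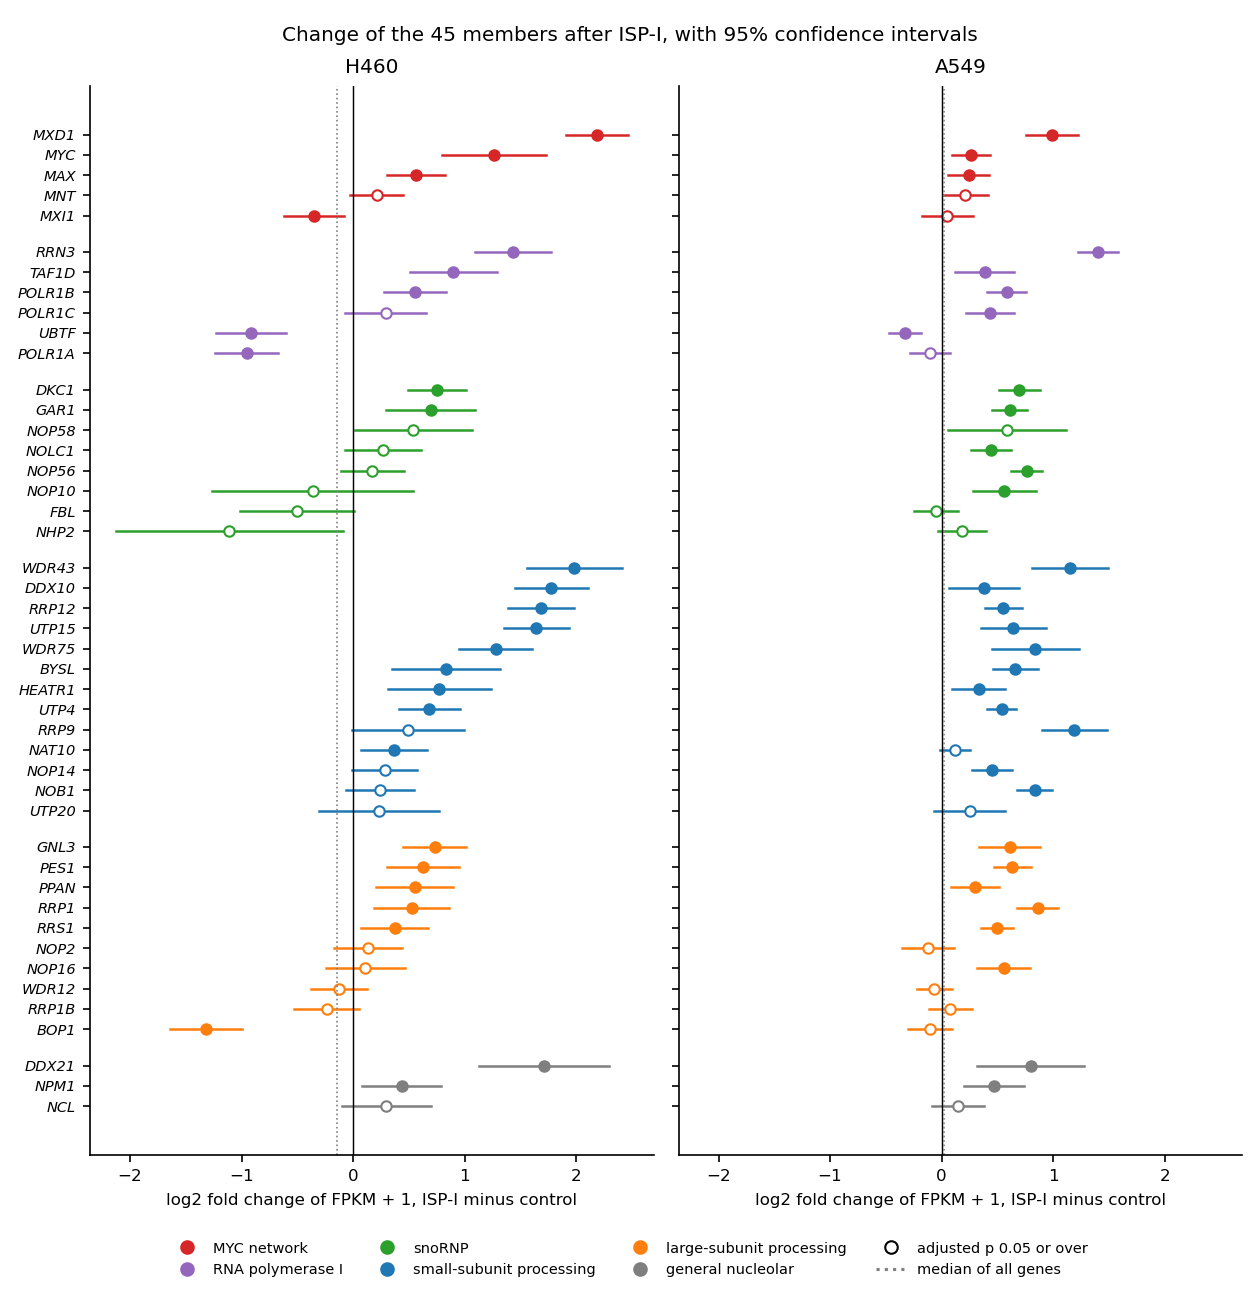
Log2 fold change of FPKM + 1, ISP-I minus control, for the 45 members by role in H460 (left) and A549 (right). Points are limma estimates, filled where the adjusted p is under 0.05, lines are 95% confidence intervals, and the dotted line is the median of all genes. MXD1 and WDR43 lie farthest to the right in H460, BOP1 is lowest among the called genes there, and RRN3 lies farthest to the right in A549.

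The reads given to the members grew in the same direction. In H460 the 45 genes took 1.14%, 1.07% and 1.17% of the reads on genes in the control libraries and 1.698%, 1.798% and 1.596% in the ISP-I libraries. In A549 the shares were 0.937%, 0.936% and 0.825% in the control and 1.21%, 1.199% and 1.23% after ISP-I. In both lines every treated library lay above every control library. The members were well expressed throughout, with a median level of 31.7 FPKM in untreated H460 and 29.4 FPKM in untreated A549.

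MYC itself and MXD1, which pairs with MAX as a repressor, both rose in both lines. MYC stood at 70.8, 75.9 and 94.6 FPKM in the H460 control libraries and at 168, 167 and 257 FPKM after ISP-I. In A549 it stood at 39.4, 38.4 and 44.2 FPKM in the control libraries and 48.97, 47.2 and 50.8 FPKM after ISP-I. The groups did not overlap in either line, and the lowest treated H460 library was well above the highest control library. The log2 fold change of MYC was 1.26 (SE 0.20, limma adjusted p = 0.000594) in H460 and 0.27 (SE 0.07, limma adjusted p = 0.0154) in A549. H460 ISP-I library 3 was the highest for MYC, and without it the H460 change was 1.06 (limma adjusted p = 8.51e-05). The smaller A549 call on MYC was lost without control library 1 or 2 or ISP-I library 1 or 3 (limma adjusted p from 0.0522 to 0.0694), and when all 12 libraries shared 1 estimate of the spread (limma adjusted p = 0.189).

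MXD1 (chr2:69897688-69942945, plus strand, hg38), which competes with MYC for MAX, was low before treatment and had the largest change of the 45 members in H460. Its H460 values were 1.01, 0.985 and 0.972 FPKM in the control and 7.59, 9.42 and 7.300 FPKM after ISP-I, a ratio of means of 8.202. In A549 MXD1 stood at 0.841, 0.771 and 0.448 FPKM and then at 2.31, 2.43 and 2.26 FPKM, a ratio of 3.397. On the log2(FPKM + 1) scale, which understates the change of a low gene, MXD1 rose by 2.19 (SE 0.12, limma adjusted p = 1.66e-06) in H460 and by 0.99 (SE 0.10, limma adjusted p = 8.30e-05) in A549. MAX, the common partner, rose by 0.56 (SE 0.11, limma adjusted p = 0.00231) in H460, from 6.898, 7.18 and 7.82 to 11.03, 10.4 and 12.5 FPKM.

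The remaining members of the network changed little. In A549 MAX rose by 0.24 (SE 0.08, limma adjusted p = 0.0288), a call that was lost without control library 2 or ISP-I library 1 or 2 or 3 (limma adjusted p from 0.0545 to 0.112). MXI1, another repressor partner of MAX, fell in H460 from 2.86, 2.37 and 3.14 to 1.92, 1.799 and 2.19 FPKM, by 0.35 on the log2 scale (SE 0.12, limma adjusted p = 0.0269). This call was not robust, since it was lost without control library 1 or 3 or ISP-I library 1 or 2 (limma adjusted p from 0.0699 to 0.101) and under median-of-ratios scaling, where the value was -0.15 (limma adjusted p = 0.281). In A549 the change of MXI1 was 0.052 (SE 0.10, limma adjusted p = 0.677). MNT, the broadly expressed repressor, was not called in either line, with 0.21 (SE 0.10, limma adjusted p = 0.0995) in H460 and 0.21 (SE 0.09, limma adjusted p = 0.0647) in A549, although its 3 treated libraries lay above the 3 controls in both. With median-of-ratios scaling MNT was called higher in H460, at 0.45 (limma adjusted p = 0.00556).

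**Figure D3:**
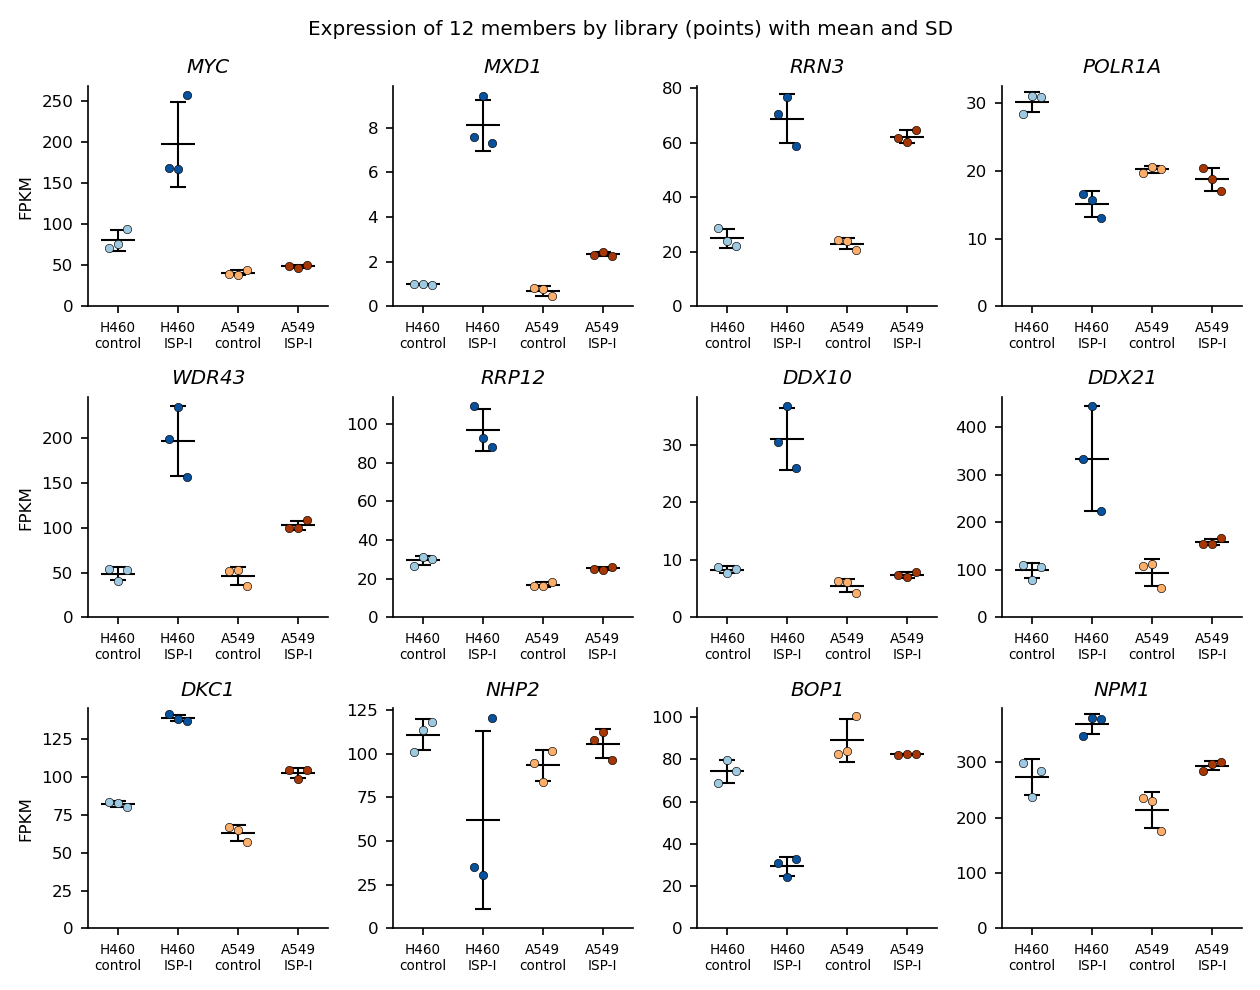
FPKM of 12 members in each library (points) with the mean and SD (bars, n = 3) for H460 control, H460 ISP-I, A549 control and A549 ISP-I, each panel starting at 0. MYC, MXD1, RRN3, WDR43, RRP12, DDX10, DDX21, DKC1 and NPM1 lie higher in every treated library than in the controls of the same line, while BOP1 and POLR1A are lower in the treated H460 libraries, and NHP2 is low in only 2 of the 3 H460 ISP-I libraries.

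Within the RNA polymerase I group, members moved in opposite directions. RRN3 (chr16:15060033-15094311, minus strand, hg38), the factor that makes the polymerase competent for initiation, rose in both lines, to a similar extent with the values as deposited. It went from 28.8, 23.9 and 21.97 FPKM to 70.7, 76.98 and 59.02 FPKM in H460, a log2 fold change of 1.43 (SE 0.15, limma adjusted p = 4.78e-05). In A549 RRN3 went from 24.3, 23.8 and 20.7 FPKM to 61.7, 60.2 and 64.9 FPKM, a log2 fold change of 1.404 (SE 0.08, limma adjusted p = 4.13e-06). The lowest treated library of RRN3, at 59.0 FPKM, was well above the highest control library, at 28.8 FPKM. The difference between the lines in the change of RRN3 was 0.028 (SE 0.17, limma adjusted p = 0.899), with a 95% confidence interval from -0.34 to 0.40. With median-of-ratios scaling it was 0.34 and not called (limma adjusted p = 0.103).

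The catalytic subunit POLR1A and the ribosomal DNA binding factor UBTF were lower in H460. POLR1A stood at 28.4, 31.1 and 30.9 FPKM in the H460 control and 16.7, 15.7 and 13.04 FPKM after ISP-I, and fell by 0.95 on the log2 scale (SE 0.12, limma adjusted p = 0.000174). Its A549 levels of 19.7, 20.6 and 20.3 FPKM and 20.5, 18.7 and 17.1 FPKM overlapped, and the change there was -0.10 (SE 0.08, limma adjusted p = 0.282). UBTF stood at 37.9, 45.4 and 46.6 FPKM in the H460 control and 25.7, 20.3 and 21.4 FPKM after ISP-I, and fell by 0.92 on the log2 scale (SE 0.14, limma adjusted p = 0.000404). It was the 1 member that fell in both lines, since in A549 it went from 34.8, 34.7 and 36.9 to 28.5, 27.7 and 27.9 FPKM, by 0.33 on the log2 scale (SE 0.06, limma adjusted p = 0.00207).

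POLR1B, the other catalytic core subunit, rose in both lines, unlike POLR1A. POLR1B went from 15.04, 14.9 and 14.1 FPKM to 24.7, 22.4 and 19.2 FPKM in H460 and from 7.47, 8.08 and 6.94 FPKM to 12.2, 11.2 and 11.7 FPKM in A549, with log2 fold changes of 0.56 (SE 0.12, limma adjusted p = 0.00362) and 0.58 (SE 0.08, limma adjusted p = 0.000345). TAF1D, a subunit of the promoter selectivity factor, rose by 0.90 (SE 0.17, limma adjusted p = 0.0015) in H460 and 0.39 (SE 0.11, limma adjusted p = 0.0195) in A549. The A549 call on TAF1D was lost without ISP-I library 1 or 2 or 3 (limma adjusted p from 0.0588 to 0.0649). POLR1C, a subunit shared with RNA polymerase III, rose in A549 by 0.43 (SE 0.09, limma adjusted p = 0.00447). Its H460 change was 0.29 (SE 0.16, limma adjusted p = 0.13), and the difference between the lines was not called (limma adjusted p = 0.545).

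Of 8 snoRNP proteins, 5 rose in A549, where 30.5% of all genes did, and 2 rose in H460, where 27.6% did. With median-of-ratios scaling 5 rose in each line. The change differed between the lines by test for NOP56 alone of the 8, and with that scaling for DKC1 alone, at 0.37 (limma adjusted p = 0.021), and no longer for NOP56, at -0.28 (limma adjusted p = 0.106). DKC1 (chrX:154762742-154777689, plus strand, hg38), the pseudouridine synthase of box H/ACA particles, stood at 83.5, 83.01 and 80.1 FPKM in the H460 control and 141, 138 and 137 FPKM after ISP-I. In A549 it stood at 67.2, 65.3 and 56.9 FPKM and then 105, 98.9 and 105 FPKM. All treated libraries of DKC1 were above all controls, and the log2 fold changes were 0.75 (SE 0.11, limma adjusted p = 0.000452) in H460 and 0.70 (SE 0.08, limma adjusted p = 0.000154) in A549. GAR1, a small core protein of the same particles, rose by 0.70 (SE 0.17, limma adjusted p = 0.00698) in H460 and 0.61 (SE 0.07, limma adjusted p = 0.000124) in A549. No snoRNP member passed the test in the downward direction in either line.

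The H/ACA core proteins NHP2 and NOP10 depended on a single library in H460. NHP2 stood at 101, 113 and 118 FPKM in the H460 control and at 35.3, 30.3 and 121 FPKM after ISP-I, so libraries 1 and 2 lay far below the controls and library 3 above them. The change of NHP2 was -1.11 (SE 0.44, limma adjusted p = 0.052) with library 3 and -1.73 (limma adjusted p = 1.68e-06) without it. NOP10 stood at 114, 108 and 117 FPKM and then at 61.4, 58.3 and 187 FPKM, with the same split among the treated libraries. Its change was -0.36 (SE 0.39, limma adjusted p = 0.433) with library 3 and -0.91 (limma adjusted p = 3.68e-05) without it. In A549, NOP10 was higher, with 0.56 (SE 0.12, limma adjusted p = 0.00474), and NHP2 was not called, with 0.18 (SE 0.09, limma adjusted p = 0.133), or 0.24 (limma adjusted p = 0.0126) without control library 3. NOP10 and NHP2 are among the shorter members, with listed lengths of 507 and 1434 bases, and 28.1% of the exonic bases of NHP2 overlap RMND5B on the other strand.

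Of the box C/D proteins FBL, NOP56 and NOP58, NOP56 was called in A549 and none was called in H460, where NOP56 and NOP58 passed with median-of-ratios scaling. FBL, the ribose methyltransferase, stood at 128, 134 and 137 FPKM in the H460 control and 82.6, 72.7 and 137 FPKM after ISP-I, again with library 3 at the level of the controls. Its H460 change was -0.50 (SE 0.22, limma adjusted p = 0.0727), and -0.77 (limma adjusted p = 0.000152) without that library, while in A549 it was -0.051 (SE 0.08, limma adjusted p = 0.626). NOP56, a core scaffold protein, rose in A549 from 65.9, 66.4 and 67.4 FPKM to 113, 112 and 116 FPKM, by 0.76 (SE 0.06, limma adjusted p = 2.03e-05), and its H460 value was 0.17 (SE 0.12, limma adjusted p = 0.243). The partner scaffold NOP58 was not called in either line, with 0.54 (SE 0.23, limma adjusted p = 0.062) in H460 and 0.58 (SE 0.23, limma adjusted p = 0.0581) in A549. Leaving out control library 1 or ISP-I library 3 (limma adjusted p from 0.00467 to 0.0478) brought the H460 change of NOP58 past the threshold, and leaving out control library 1 or 2 or 3 (limma adjusted p from 0.00114 to 0.0394) did so in A549. NOLC1, a snoRNP chaperone, was the most abundant of these genes in H460, at 212, 211 and 227 FPKM before and 279, 283 and 226 FPKM after ISP-I. NOLC1 rose in A549 by 0.44 (SE 0.08, limma adjusted p = 0.00154), and its H460 change was 0.27 (SE 0.15, limma adjusted p = 0.137) with library 3 and 0.38 (limma adjusted p = 0.0105) without it.

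Small-subunit processing had the highest share of called increases among the 6 roles, with 9 of 13 members higher in H460, 11 of 13 higher in A549 and none lower in either line. The background of all genes was 27.6% upward and 41.5% downward for H460, against 30.5% and 27.0% for A549. In H460 the abundant nucleolar proteins came close, with NPM1 and DDX21 called upward and NCL not called. The count of 0 lower members stood also under median-of-ratios scaling, where 12 of 13 were higher in H460. The background of all genes for H460 was then 34.7% upward and 32.3% downward. With that scaling NCL, NPM1 and DDX21 were all called upward in H460, so the lead over the abundant nucleolar proteins did not hold there. The 5 members of the early UTP-A complex that binds the nascent precursor (WDR43, WDR75, UTP4, UTP15 and HEATR1), a subgroup named after the values were seen, were higher in both lines. WDR43 stood at 53.6, 40.1 and 52.98 FPKM in the H460 control and 199.7, 235 and 157 FPKM after ISP-I. In A549 WDR43 stood at 51.6, 52.7 and 34.8 FPKM and then 99.7, 99.7 and 109 FPKM. Its 3 treated libraries lay far above the controls in each line, and the log2 fold changes were 1.98 (SE 0.19, limma adjusted p = 2.57e-05) and 1.15 (SE 0.15, limma adjusted p = 0.000297). Without A549 control library 3, the lowest one, the A549 change of WDR43 was 0.96 (limma adjusted p = 1.22e-07).

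UTP15 showed the same direction in both lines and a larger step in H460. Its levels were 8.35, 7.16 and 8.14 FPKM and then 27.3, 29.8 and 23.5 FPKM in H460, and 8.39, 8.93 and 6.05 FPKM and then 12.02, 13.1 and 12.7 FPKM in A549. The log2 fold changes of UTP15 were 1.64 (SE 0.13, limma adjusted p = 8.34e-06) and 0.64 (SE 0.13, limma adjusted p = 0.00283). WDR75 rose by 1.28 (SE 0.14, limma adjusted p = 6.96e-05) in H460 and 0.84 (SE 0.17, limma adjusted p = 0.00321) in A549, and UTP4 by 0.68 and 0.54. HEATR1 rose by 0.77 (SE 0.20, limma adjusted p = 0.00819) in H460 and 0.33 (SE 0.10, limma adjusted p = 0.0254) in A549, where the call was lost without ISP-I library 1 or 2 or 3 (limma adjusted p from 0.065 to 0.0827) and the value was 0.22 (limma adjusted p = 0.00565) without control library 3. Of the exonic bases of HEATR1, 23.1% overlap LGALS8 on the other strand, and whether the counting used strand is not given in the sources used here.

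DDX10 (chr11:108665058-108940999, plus strand, hg38), an RNA helicase, and RRP12, a factor of late small-subunit maturation, rose more in H460 than in A549. DDX10 stood at 8.79, 7.68 and 8.39 FPKM in the H460 control and 30.6, 36.7 and 25.9 FPKM after ISP-I, a log2 fold change of 1.78 (SE 0.14, limma adjusted p = 1.07e-05). In A549 DDX10 stood at 6.32, 6.09 and 4.16 FPKM and then 7.32, 6.94 and 7.92 FPKM, a log2 fold change of 0.38 (SE 0.14, limma adjusted p = 0.0415). The A549 call on DDX10 was lost without ISP-I library 1 or 2 or 3 (limma adjusted p from 0.0744 to 0.134), and the value was 0.22 (limma adjusted p = 0.017) without control library 3. RRP12 stood at 26.8, 30.9 and 30.4 FPKM in the H460 control and 109, 92.9 and 88.2 FPKM after ISP-I, and rose by 1.68 (SE 0.13, limma adjusted p = 8.73e-06). It also rose in A549, from 15.9, 16.4 and 18.4 to 25.2, 24.7 and 26.00 FPKM, by 0.55 (SE 0.07, limma adjusted p = 0.000332).

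RRP9, a protein specific to the small nucleolar particle that guides the first cuts, and NOB1, the endonuclease that makes the last cut of small-subunit rRNA, rose in A549 and were not called in H460. RRP9 stood at 36.01, 36.8 and 50.4 FPKM in the A549 control and 87.8, 95.7 and 98.8 FPKM after ISP-I, a log2 fold change of 1.19 (SE 0.13, limma adjusted p = 0.000107). In H460 RRP9 stood at 69.5, 77.1 and 67.7 FPKM and then 94.9, 74.99 and 143 FPKM, and the change was 0.49 (SE 0.22, limma adjusted p = 0.0755), or 0.70 (limma adjusted p = 0.0107) without ISP-I library 2. NOB1 stood at 39.3, 37.4 and 42.7 FPKM and then 72.2, 71.1 and 71.7 FPKM in A549, a log2 fold change of 0.83 (SE 0.07, limma adjusted p = 2.76e-05), against 0.24 (SE 0.13, limma adjusted p = 0.141) in H460. The difference between the lines was -0.70 (SE 0.28, limma adjusted p = 0.0502) for RRP9 and -0.60 (SE 0.14, limma adjusted p = 0.00392) for NOB1, and that of NOB1 was lost under median-of-ratios scaling. NOP14 was likewise called in A549, with 0.45 (SE 0.08, limma adjusted p = 0.00139), and in H460 it gave 0.28 (SE 0.13, limma adjusted p = 0.0754) with all libraries and 0.39 (limma adjusted p = 0.0314) without control library 3.

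The other small-subunit members were BYSL, NAT10 and UTP20. BYSL rose by 0.83 (SE 0.21, limma adjusted p = 0.00719) in H460 and 0.66 (SE 0.09, limma adjusted p = 0.000347) in A549, with H460 ISP-I library 3 the highest for it, and by 0.59 (limma adjusted p = 0.00194) without that library. NAT10, the rRNA cytidine acetyltransferase, was the 1 member called higher in H460 and not in A549, with 0.37 (SE 0.13, limma adjusted p = 0.0304) and 0.12 (SE 0.06, limma adjusted p = 0.12). The difference between the lines was not called (limma adjusted p = 0.12), but with median-of-ratios scaling it was, at 0.56 (limma adjusted p = 0.00558). The H460 call on NAT10 was lost without control library 1 or 2 or 3 or ISP-I library 1 (limma adjusted p from 0.0523 to 0.116), and its A549 change passed the threshold without control library 3 (limma adjusted p = 0.0252). UTP20 was not called in either line, with 0.23 (SE 0.23, limma adjusted p = 0.4) in H460 and 0.25 (SE 0.14, limma adjusted p = 0.149) in A549. Leaving out ISP-I library 3 (limma adjusted p = 0.005) in H460 or control library 2 (limma adjusted p = 0.0184) in A549 brought UTP20 past the threshold.

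Among large-subunit members the PES1, BOP1 and WDR12 complex split in H460. PES1 stood at 70.8, 81.1 and 76.8 FPKM in the H460 control and 120.5, 102 and 133 FPKM after ISP-I, and rose by 0.62 (SE 0.14, limma adjusted p = 0.00405). BOP1 stood at 68.96, 79.7 and 74.2 FPKM and then 30.9, 24.4 and 32.8 FPKM, and fell by 1.32 on the log2 scale (SE 0.14, limma adjusted p = 5.64e-05). WDR12 stood at 9.57, 8.09 and 8.97 FPKM and then 7.79, 8.23 and 8.05 FPKM, a change of -0.13 (SE 0.11, limma adjusted p = 0.321). The treated libraries were thus all higher for PES1 and all lower for BOP1, and overlapped the controls for WDR12. BOP1 was the member with the largest called fall in H460. In A549 PES1 rose by 0.63 (SE 0.07, limma adjusted p = 0.00016), BOP1 changed by -0.10 (SE 0.09, limma adjusted p = 0.341) and WDR12 by -0.067 (SE 0.07, limma adjusted p = 0.43).

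RRP1, RRS1, GNL3 and PPAN rose in both lines. GNL3, the GTPase nucleostemin, stood at 43.9, 37.6 and 44.5 FPKM and then 67.3, 75.1 and 68.5 FPKM in H460, and at 52.4, 48.96 and 37.1 FPKM and then 69.7, 69.8 and 71.2 FPKM in A549. Its log2 fold changes were 0.73 (SE 0.12, limma adjusted p = 0.000779) and 0.61 (SE 0.12, limma adjusted p = 0.00281). RRP1 rose by 0.53 (SE 0.15, limma adjusted p = 0.0115) in H460 and 0.86 (SE 0.08, limma adjusted p = 5.43e-05) in A549. RRS1, which helps to load the small ribosomal RNA of the large subunit, rose by 0.37 (SE 0.13, limma adjusted p = 0.0308) and 0.50 (SE 0.06, limma adjusted p = 0.000251). The H460 calls were lost for RRP1 without control library 1 (limma adjusted p = 0.0519) and for RRS1 without control library 1 or 3 or ISP-I library 1 (limma adjusted p from 0.0677 to 0.119). PPAN, at 0.891 to 4.34 FPKM, rose by 0.55 (SE 0.15, limma adjusted p = 0.0105) in H460 and 0.30 (SE 0.09, limma adjusted p = 0.0242) in A549, where the call was lost without ISP-I library 1 (limma adjusted p = 0.0813). Because 49.2% of the exonic bases of PPAN belong also to other genes, including the readthrough gene PPAN-P2RY11, its reads cannot be assigned with certainty.

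NOP16, RRP1B and NOP2 completed this group. NOP16 rose in A549 by 0.56 (SE 0.10, limma adjusted p = 0.00197), and gave 0.11 (SE 0.15, limma adjusted p = 0.554) in H460. RRP1B was not called in either line, with -0.24 (SE 0.13, limma adjusted p = 0.128) in H460 and 0.079 (SE 0.08, limma adjusted p = 0.441) in A549. NOP2, an rRNA methyltransferase, was listed between 0.2 and 0.82 FPKM in the 12 libraries, the lowest level of any member. In the GENCODE v44 annotation 54.4% of its exonic bases are shared with another coding gene on the same strand, so its level is uncertain, and its changes of 0.13 (SE 0.13, limma adjusted p = 0.388) and -0.12 (SE 0.10, limma adjusted p = 0.332) were not called.

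Of the 3 abundant nucleolar proteins, DDX21 changed most. DDX21 (chr10:68956135-68985068, plus strand, hg38), an RNA helicase of rRNA synthesis and processing, stood at 110.4, 79.4 and 106 FPKM in the H460 control and 334, 444 and 223 FPKM after ISP-I. In A549 DDX21 stood at 108, 112 and 60.9 FPKM and then 154, 154 and 166 FPKM. The groups did not overlap in either line, although the treated H460 libraries spread widely, and the log2 fold changes were 1.71 (SE 0.25, limma adjusted p = 0.000384) and 0.80 (SE 0.21, limma adjusted p = 0.0115). Without A549 control library 3 the A549 change of DDX21 was 0.52 (limma adjusted p = 8.03e-06). NPM1, a histone and ribosome chaperone, rose by 0.44 (SE 0.15, limma adjusted p = 0.0329) in H460 and 0.47 (SE 0.12, limma adjusted p = 0.00848) in A549. The H460 call on NPM1 was lost without control library 1 or 2 or 3 or ISP-I library 1 or 2 (limma adjusted p from 0.0521 to 0.156). NPM1 has 49 pseudogenes by name in the annotation, which may share reads with it. The same holds on a smaller scale for RRN3, NOP56, NHP2, NOLC1, DDX10, PES1 and NCL, with 1 to 3 pseudogenes each. NCL, at 199.8, 182 and 214 FPKM in the H460 control, was not called in either line, with 0.30 (SE 0.17, limma adjusted p = 0.153) in H460 and 0.15 (SE 0.10, limma adjusted p = 0.239) in A549, and passed in H460 without ISP-I library 3 (limma adjusted p = 0.00704).

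Beyond the 45 members, 157 further genes of the same processes in 6 lists were read, and the processing lists moved in the same direction. In A549, 28 of 40 tested genes of other small-subunit processing and 35 of 46 of other large-subunit processing were higher, and 0 and 2 were lower. In H460 the counts were 17 of 41 and 26 of 46 higher, with 4 and 6 lower. Of all genes tested, 30.5% were higher and 27.0% lower in A549, and 27.6% and 41.5% in H460. Median log2 fold changes of the large-subunit list were 0.64 in H460 and 0.60 in A549, against -0.15 and 0.02 for all genes. With median-of-ratios scaling, 25 and 31 genes of these lists were higher in H460 and 2 and 5 lower, against 34.7% and 32.3% of all genes.

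Large increases were found in both processing lists. UTP3, an early small-subunit factor, stood at 29.9, 24.6 and 27.6 FPKM in the H460 control and 115, 127 and 155 FPKM after ISP-I, a log2 fold change of 2.23 (SE 0.15, limma adjusted p = 3.81e-06). RIOK2, a kinase of late small-subunit maturation, rose by 2.03 (SE 0.19, limma adjusted p = 2.66e-05) in H460 and 1.26 (SE 0.14, limma adjusted p = 0.000152) in A549. UTP23 rose by 1.76 and 1.24, and among large-subunit factors NIFK rose by 1.45 and 1.48 and SURF6 by 1.26 and 1.21, each in H460 and A549. CEBPZ rose by 2.17 (SE 0.35, limma adjusted p = 0.000622) and NOC3L by 2.02 (SE 0.24, limma adjusted p = 0.000111) in H460. The treated H460 libraries of CEBPZ, at 55.2, 105 and 39.2 FPKM, were spread widely around their mean.

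Some processing factors were lower in H460. The helicase DDX54 stood at 78.1, 85.7 and 86.4 FPKM in the control and 33.7, 27.6 and 33.7 FPKM after ISP-I, and fell by 1.37 on the log2 scale (SE 0.13, limma adjusted p = 2.37e-05). SENP3, a protease that removes SUMO from large-subunit factors, fell by 1.48 on the log2 scale (SE 0.29, limma adjusted p = 0.00195), and TBL3 and RRP7A of the small-subunit list fell by 0.97 and 0.86. In A549 RRP7A rose by 0.38 (SE 0.11, limma adjusted p = 0.0159). FTSJ3, an rRNA methyltransferase, fell in H460 by 1.05 and in A549 by 0.45 on the log2 scale (SE 0.07, limma adjusted p = 0.000707), and URB2 fell in A549 by 0.23.

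Other RNA polymerase I genes were again split. Of 11, 6 were higher and 2 lower in H460, where 27.6% and 41.5% of all genes were. In A549, 4 of them were higher and 2 lower, where 30.5% and 27.0% of all genes were. TAF1A, a promoter selectivity subunit, rose by 1.56 (SE 0.17, limma adjusted p = 5.87e-05) in H460 and 0.73 (SE 0.17, limma adjusted p = 0.00576) in A549, and the polymerase subunit POLR1F by 1.04 and 0.82, the latter being 0.52 (limma adjusted p = 0.000171) without A549 control library 3. TCOF1, the treacle protein that works with UBTF on ribosomal DNA, stood at 47.4, 50.03 and 56.6 FPKM in the H460 control and 29.1, 24.2 and 22.5 FPKM after ISP-I, and fell by 0.998 on the log2 scale (SE 0.14, limma adjusted p = 0.000231). TCOF1 fell by 0.46 on the log2 scale (SE 0.06, limma adjusted p = 0.000388) in A549, and BAZ2A, which silences ribosomal DNA, fell there by 0.34.

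The list of RNA-cutting and trimming enzymes, RNase MRP and the exosome, had more calls upward in A549, a difference between lines that was not tested as a list. Of 25 genes, 5 were higher and 5 lower in H460, against 14 higher and 2 lower in A549, where 30.5% and 27.0% of all genes were. Both H460 counts were smaller shares than the 27.6% and 41.5% of all genes, and with median-of-ratios scaling 9 were higher and 2 lower there, against 34.7% and 32.3%. DIS3, an exosome nuclease, rose in H460 by 1.399 (SE 0.29, limma adjusted p = 0.00248), and RPP38 rose in both lines, by 1.18 and 0.92. RPP25 rose in A549 by 1.17 (SE 0.08, limma adjusted p = 1.29e-05). POP5, a shared subunit of RNase MRP and RNase P, fell by 1.57 on the log2 scale (SE 0.22, limma adjusted p = 0.000284) in H460 and 0.40 in A549. POP7 fell in H460 from 63.8, 72.99 and 77.9 to 26.6, 24.4 and 70.3 FPKM, by 0.97 on the log2 scale (SE 0.35, limma adjusted p = 0.0353), with ISP-I library 3 far above libraries 1 and 2. Its change was -1.45 (limma adjusted p = 4.42e-06) without library 3 and -0.71 (limma adjusted p = 0.0952) without library 2, and the call was lost under median-of-ratios scaling (limma adjusted p = 0.106), and POP1 fell in A549 by 0.22.

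Known MYC targets outside the nucleolus were split between higher and lower. Of 26, 7 were higher and 12 lower in H460, near the background of 27.6% and 41.5% of all genes. Of 25 tested in A549, 10 were higher and 7 lower, against 30.5% and 27.0% of all genes. Their medians were -0.31 in H460 and 0.09 in A549. ODC1, the rate-limiting enzyme of polyamine synthesis, stood at 306, 331 and 267 FPKM in the H460 control and 729, 591 and 589 FPKM after ISP-I, and rose by 1.07 (SE 0.17, limma adjusted p = 0.000578) there and by 1.25 (SE 0.07, limma adjusted p = 3.37e-06) in A549. PPRC1 rose in H460 by 1.05 and TFB2M in A549 by 0.71. LDHA, the lactate dehydrogenase subunit of glycolytic cells, stood at 289, 264 and 224 FPKM and then 91.1, 80.2 and 85.1 FPKM in H460, and fell by 1.58 on the log2 scale (SE 0.14, limma adjusted p = 2.21e-05). TMEM97 fell by 2.25 in H460 and 0.96 in A549, and MCM5, a replicative helicase subunit, fell in A549 by 0.96 on the log2 scale (SE 0.07, limma adjusted p = 1.55e-05).

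The other members of the extended MYC network were split between higher and lower. Of the 7 tested of 8, 1 was higher and 4 lower in H460, where 27.6% and 41.5% of all genes were. In A549, 2 were higher and 3 lower, where 30.5% and 27.0% of all genes were, and 7 genes are few for such shares. MLX, a partner of the MXD and MLXIP proteins, fell in H460 from 23.6, 25.8 and 26.6 to 19.3, 16.1 and 22.2 FPKM, by 0.39 on the log2 scale (SE 0.14, limma adjusted p = 0.0314), and rose in A549 by 0.50 (SE 0.07, limma adjusted p = 0.00037). The H460 call on MLX was lost under median-of-ratios scaling, with -0.12 (limma adjusted p = 0.473), and without ISP-I library 2, with -0.28 (limma adjusted p = 0.0891). MLXIP, a glucose-responsive factor, fell in A549 by 0.39 on the log2 scale (SE 0.08, limma adjusted p = 0.00429).

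**Figure D4:**
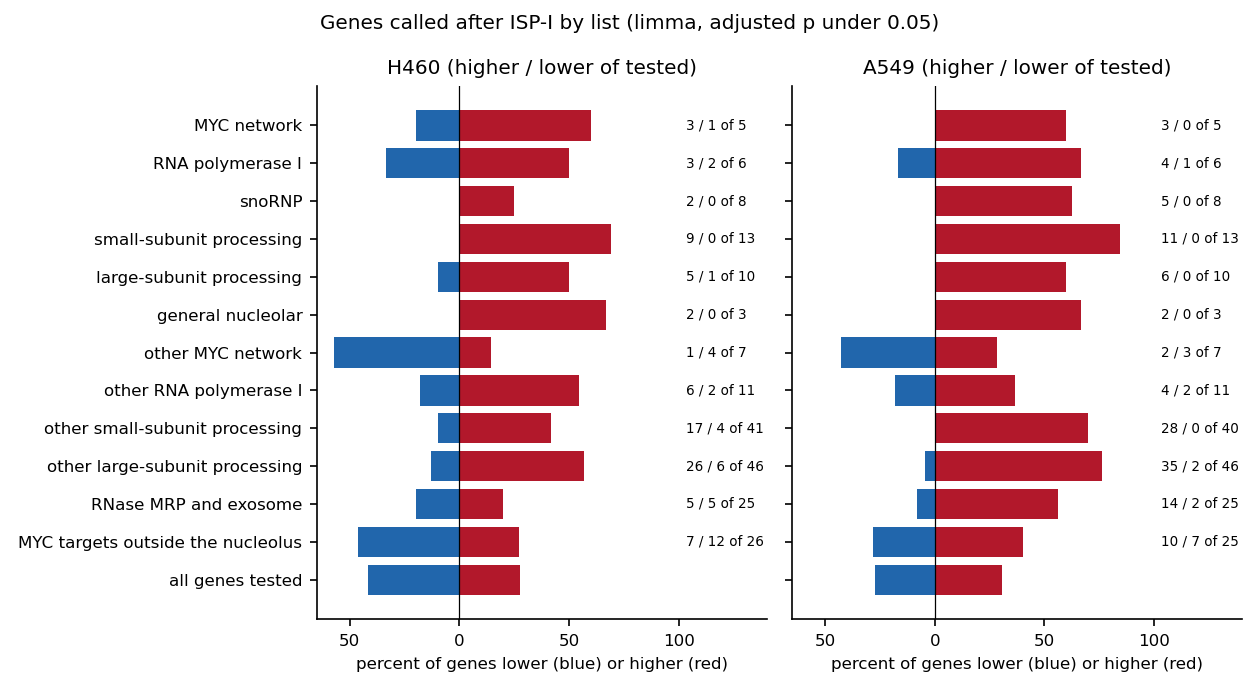
Percent of tested genes in each list called higher (red, to the right) or lower (blue, to the left) after ISP-I in H460 and A549, by limma at an adjusted p under 0.05, with the counts at the right of each bar. The upper 6 bars are the members by role, the next 6 are the further lists, and the last bar is all genes tested, where H460 has 27.6% called higher against 41.5% lower and A549 has 30.5% against 27.0%.

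Set side by side, 23 members were higher in both lines and 1 was lower in both. A further 8 were higher in A549 and not called in H460 (POLR1C, NOP56, NOP10, NOLC1, NOP14, RRP9, NOB1 and NOP16), and 9 were called in neither line. With median-of-ratios scaling 6 of these 8 were called higher in H460 too, the exceptions being NOP10 and NOP16, and by the interaction test NOP56 and NOB1 were the ones of the 8 whose change differed between the lines, calls that were lost with that scaling. MXI1, POLR1A and BOP1 were lower in H460 and not called in A549. Across the 45 members the H460 and A549 changes had a Pearson r of 0.67 and a Spearman rho of 0.63, as a description over genes, which are not independent replicates. No member was higher in one line and lower in the other. The shares of all genes with the same pairs of calls across the lines were not computed, so these member counts have no background beside them.

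A difference between the lines was tested directly as an interaction over all 12 libraries. The change was more positive in H460 for 7 members and more negative for 6, where 18.6% and 34.7% of the 13953 genes tested were called in these directions. With a difference over 1 on the log2 scale, 4 members were more positive (MXD1, UTP15, RRP12 and DDX10) and 1, BOP1, more negative, against 5.93% and 10.1% of all genes. DDX10 had the largest such difference, 1.396 (SE 0.20, limma adjusted p = 0.000122), and BOP1 the most negative called one, -1.22 (SE 0.17, limma adjusted p = 7.24e-05). MYC differed by 0.999 (SE 0.23, limma adjusted p = 0.00271). The median of all genes for this interaction was -0.16, and 0.019 with median-of-ratios scaling. With that scaling 16 members were more positive and 2, POLR1A and BOP1, more negative, against 27.2% and 23.6% of all genes. The calls gained included TAF1D, DKC1, WDR75, UTP4, HEATR1, NAT10, GNL3 and PPAN (limma adjusted p from 0.00538 to 0.0353). Without H460 ISP-I library 3, 10 members were more positive and 12 more negative in H460, against 21.5% and 37.9% of all genes. Without A549 control library 3 the counts were 9 and 7, against 20.3% and 34.7%, and without H460 ISP-I library 2 they were 7 and 5, against 17.3% and 33.7%.

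**Figure D5:**
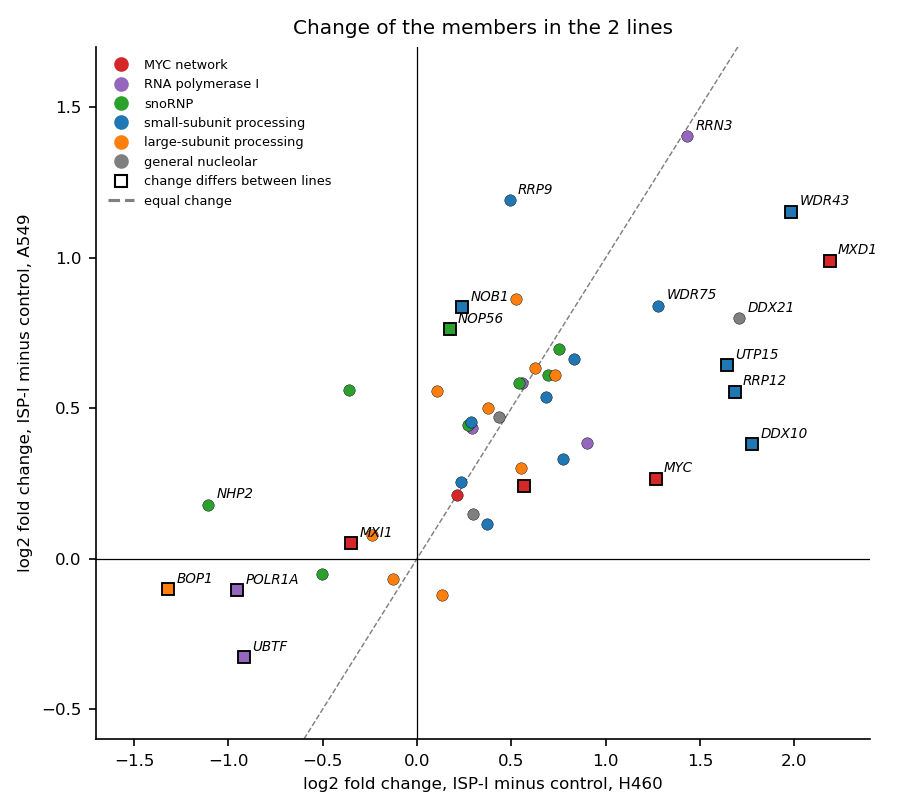
Log2 fold change after ISP-I in H460 (horizontal axis) against A549 (vertical axis) for the 45 members coloured by role, squares marking a called difference between the lines and the dashed line equal change. RRN3 lies close to the line of equal change, DDX10, RRP12, UTP15, MYC and MXD1 lie to its right, and BOP1, POLR1A and UBTF lie at the lower left.

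Before treatment the members tended to be higher in H460 than in A549. Of 45 members, 25 were higher in untreated H460 and 3 were lower, where 27.1% and 30.4% of all genes were called, and the members' median difference was 0.36 on the log2 scale against -0.018 for all genes. On the log2(FPKM + 1) scale MYC had the largest such difference, 0.96 (SE 0.16, limma adjusted p = 0.000229), at 80.4 ± 12.5 FPKM (SD, n = 3) in H460 and 40.7 ± 3.09 FPKM in A549. By the ratio of mean FPKM, MXI1 at 2.06 and PPAN at 2.05, both at lower levels, exceeded MYC at 1.98. POLR1B, NOLC1, RRP9, RRP12 and WDR75 were higher in H460 by 0.88, 0.85, 0.80, 0.76 and 0.76. The 3 members called lower in H460 were FBL, RRS1 and UTP4, by -0.93 (SE 0.18, limma adjusted p = 0.000828), -0.77 (SE 0.10, limma adjusted p = 1.91e-05) and -0.32 (SE 0.08, limma adjusted p = 0.00645). This contrast was fitted on all 12 libraries, so its SE also holds the spread of the treated libraries. NOP10 was lower in untreated H460 without overlap, by -0.62 (SE 0.33, limma adjusted p = 0.131), and was not called. Without H460 ISP-I library 3, 27 members were called higher and 5 lower, against 29.6% and 32.6% of all genes. FBL stood at 128, 134 and 137 FPKM in untreated H460 and 246, 238 and 281 FPKM in untreated A549. RRN3 and WDR43 began at similar levels in the lines, with differences of 0.11 (SE 0.12, limma adjusted p = 0.472) and 0.087 (SE 0.18, limma adjusted p = 0.71). Each line is 1 line, so this compares H460 with A549 and not tumour types.

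Several members also carry snoRNA genes within their span. On the same strand, 8 of the 45 members hold annotated snoRNAs (17.8%), against 1.54% of the 13405 genes tested in H460 that matched the annotation. These were TAF1D with 8 snoRNA genes, GNL3 with 6, NOP56 with 5, NOP58 with 4, WDR43 and NCL with 3 each, and DKC1 and PPAN with 2 each. Of the 8 hosts, 5 were higher in H460 and 6 in A549, beside 24 and 31 of the 45 members and 27.6% and 30.5% of all genes, and none was lower. Reads from the hosted snoRNAs were not separated from those of the host. Shares of 16.1 to 20.7% of exonic bases with other genes were found also for MAX, POLR1C, NOP14, NOB1 and NOP16, whose values carry the same uncertainty as those of NHP2 and HEATR1.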

How the data were processed

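RNA from the 12 libraries was prepared with a TruSeq kit and sequenced as 150 b paired-end reads. FastQC filtering, HISAT2 alignment to hg38 and HTSeq 0.9.1 counting were done by the authors, who deposited FPKM per gene with a gene length in bases (unit other). Strand settings are not given in the sources used here. The column names gave line and treatment but not the replicate number of a label. Authors' comparison columns were not present, and 0 columns of values per sample were left unused.

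Of 19977 lines, 4 pieces of a broken annotation cell were left out. Every value above 0 was a whole number of reads within 0.1 (100.0% of values), so reads were recovered for an alternative test. The main test was limma 3.58.1 (R 4.3.3; lmFit, eBayes with trend) on log2(FPKM + 1), a pseudocount of 1, for genes averaging 0.1 FPKM or more, in the 6 libraries of each line, or in all 12 for the interaction and the untreated lines. P-values were adjusted by Benjamini-Hochberg over all genes tested, and genes were called at adjusted p under 0.05, with a fold over 2 as the stricter rule. The test was also run on simulated reads with even replicates and no trends with GC content or length. That run therefore says nothing about the library departures described above. Python 3.11.15 was used for the tables.

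The members and lists were chosen with earlier results of these data known, so counts are set beside all genes and no list was tested. All members are named. Of each further list and line, up to 2 genes with the largest rise and 2 with the largest fall were named, among those called with a mean of at least 5 FPKM. Gene positions came from GENCODE v44 and promoters from RefSeq (GRCh38.p14). MYC, NOP58, NOLC1, RRP12, BOP1, RRS1 and RRP1B had no promoter in that table. Replicate libraries differed by more than sampling noise in every group (chi-square per degree of freedom 3.04 to 99.3), so none was merged. Alternatives were another pseudocount, other filters, median-of-ratios scaling, quantile normalization, voom on recovered reads, a single fit, leaving out each library, and removal of trends with GC content and length.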

Additional observations from a re-analysis of the deposited data

Results flagged for a closer look

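For 13 members the change after ISP-I differed between H460 and A549 by the interaction test of limma at an adjusted p under 0.05. Of these, 7 were more positive in H460 and 6 more negative, beside 18.6% and 34.7% of all genes. The counts depended on the setting. With the trend with GC content removed they were 15 and 5, against 28.3% and 27.4% of all genes. With the trend with gene length removed they were 16 and 5, against 26.9% and 26.1%. Values are the H460 change minus the A549 change on the log2 scale, with 3 libraries in each of 4 groups.

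In the MYC network, MYC differed by 0.999 (SE 0.23, limma adjusted p = 0.00271), or 0.79 (limma adjusted p = 0.000806) without H460 ISP-I library 3. MXD1 differed by 1.198 (SE 0.15, limma adjusted p = 3.74e-05). MAX differed by 0.32 (SE 0.12, limma adjusted p = 0.0454), a call lost on leaving out any of 9 of the 12 libraries. MXI1 differed by -0.40 (SE 0.15, limma adjusted p = 0.0385), a call lost on leaving out any of 9 libraries and under median-of-ratios scaling, with -0.18 (limma adjusted p = 0.316).

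In the RNA polymerase I group, POLR1A differed by -0.85 (SE 0.14, limma adjusted p = 0.000285) and by -0.55 (limma adjusted p = 0.00777) with median-of-ratios scaling. UBTF differed by -0.59 (SE 0.15, limma adjusted p = 0.00464), a call lost with that scaling, at -0.29 (limma adjusted p = 0.15). NOP56 of the snoRNP group differed by -0.59 (SE 0.12, limma adjusted p = 0.00156), likewise lost at -0.28 (limma adjusted p = 0.106).

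Among processing factors, WDR43 differed by 0.83 (SE 0.26, limma adjusted p = 0.0164), UTP15 by 1.001 (SE 0.18, limma adjusted p = 0.000599), RRP12 by 1.13 (SE 0.14, limma adjusted p = 3.14e-05) and DDX10 by 1.396 (SE 0.20, limma adjusted p = 0.000122). All 4 stayed called with median-of-ratios scaling. NOB1 differed by -0.60 (SE 0.14, limma adjusted p = 0.00392), a call lost with that scaling at -0.29 (limma adjusted p = 0.149). BOP1 differed by -1.22 (SE 0.17, limma adjusted p = 7.24e-05) and by -0.91 (limma adjusted p = 0.00131) with that scaling.

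NHP2 showed a difference of -1.29 (SE 0.53, limma adjusted p = 0.056) that was not called with all libraries and reached -1.905 (limma adjusted p = 1.06e-06) without H460 ISP-I library 3.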

How the results depend on the processing

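No member reversed its direction past the threshold under any alternative that was run. Of the 28 members called in H460, 23 stayed called on leaving out any 1 of 6 libraries and 26 under the 8 other planned settings; of the 32 called in A549, 26 and 25 did so. In H460, members lower by over 2-fold numbered 2 with a smaller pseudocount (0.1), a filter at 1 FPKM, quantile normalization, voom on library totals or a single fit of all 12 libraries, and 0 with the GC trend removed, against 1. Members higher by over 2-fold numbered 14 with median-of-ratios scaling and 15 with voom on those factors, against 9, while the share of all genes was 14.4% with that scaling, against 10.5%. Leaving out 1 library gave 3 to 7 members lower in H460, the 7 without ISP-I library 3, and 1 to 3 lower by over 2-fold. In A549, quantile normalization gave 3 members lower, against 1. For the interaction, median-of-ratios scaling and voom on those factors each gave 16 members more positive in H460, 2 more negative, and 7 and 0 over 2-fold, against 7, 6, 4 and 1. Removing the GC trend gave 15 more positive and 0 more negative over 2-fold, removing the length trend gave 16 and 7 more positive, and quantile normalization and voom on library totals gave 2 more negative over 2-fold. Leaving out 1 library gave 5 to 12 more negative, the 12 without H460 ISP-I library 3, and 1 to 3 over 2-fold. Untreated, 6 members were lower in H460 with quantile normalization and 3 to 5 on leaving out 1 library, against 3. The looser motif CANNTG was found in 76.3% of members with a promoter, 67.7% of genes tested in H460 and 73.1% of all genes of the table. The GC and length settings were chosen after seeing the data; why counts moved was not tested. No paired analysis was possible because the columns carry no replicate numbers of the labels. With 3 libraries a group, the SE of a member's change reached 0.445 in H460 (NHP2).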
